A study of Mus musculus with 8 samples.

Results

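Solute carriers are membrane proteins that move ions, nutrients, metabolites and metals across the plasma membrane and the membranes of organelles without splitting ATP for the transport step itself. Many are coupled to the sodium gradient kept by the sodium-potassium ATPase or to a proton gradient, others exchange one substrate for another, and the mitochondrial carriers link the cytosol to the mitochondrial matrix. In the skeleton they carry the phosphate, sulfate and zinc used for matrix, and in red cell precursors the iron used for heme. The genes examined here are those listed with a symbol of the form Slc, family number, a, member number, leaving out *Slc2a1*, *Slc4a1* and *Slc13a5*. They were 217 of the 15880 genes in the table and belonged to 43 families, which were grouped into 15 substrate classes. The annotation holds 325 gene identifiers with such symbols once those left out are removed, and 108 of them were not in the table, which the authors had filtered for genes with enough reads, so all counts are of listed members. 1 symbol, *Slc38a9*, was listed under a pair of identifiers that were tested separately, so the 217 carry 216 symbols.

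The cells came from collagenase-digested bones of newborn (postnatal day 1) C57BL/6 pups heterozygous for *Nes-Gfp*, a transgene in which nestin regulatory elements drive GFP. After removal of cells with CD45 (leukocytes), CD31 (endothelium) or Ter119 (red cells) on their surface, the stromal cells were sorted by GFP and by surface Pdgfrα, a growth factor receptor of mesenchymal cells, into GFP+ Pdgfrα+ (double-positive), GFP- Pdgfrα+, GFP+ Pdgfrα- and GFP- Pdgfrα- (double-negative) cells. Each of the 4 populations had 2 RNA-seq libraries, each from a pool of 3 pups with 15000 to 80000 sorted cells, so spreads are between pools and not between animals, and the series' design text has each set of samples come from pooled littermates. Libraries held 3221217 to 5302762 reads. Values are the deposited normalized signal, in which reads are divided by an effective library size and scaled to a fixed total, and are given as mean ± SD (n = 2). The level of 3 reads, 0.825 to 1.04 depending on the library, was taken as the floor, and a fold against a population with at most 3 reads in both libraries is written as "at least".

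The double-negative libraries stood apart in markers of red cell precursors. All 6 genes of that list (*Alas2*, *Epb4.2*, *Rhag*, *Klf1*, *Ermap* and *Hba-a1*) were listed and all 6 were called higher there, both against GFP+ Pdgfrα- and against GFP- Pdgfrα+ cells. Their summed signal per library was 4271 and 6249 there, and between 17.4 and 61.2 in the remaining 6 libraries, with *Hba-a1* the most abundant (2520 in the mean of double-negative cells). None was at 0 reads in a double-negative library, although the sort removed Ter119+ cells. The other populations were marked too. Osteoblast markers summed to 60770 and 44660 in double-positive cells, mostly *Col1a1*, against 17300 and 15670 in GFP- Pdgfrα+ cells and 3862 and 3187 in GFP+ Pdgfrα- cells. The list holds 7 genes, of which *Runx2* was listed under a pair of identifiers, and 8 of 8 identifiers were called higher in double-positive cells in both comparisons. Tendon markers summed to 3854 and 3906 in GFP- Pdgfrα+ cells against 654.8 and 664.9 in double-positive cells, with *Thbs4* the most abundant. GFP+ Pdgfrα- cells had the highest sums of Schwann cell precursor markers (472 and 434.3, led by *Erbb3*), skeletal muscle markers (806.8 and 835.6, led by *Pax7*) and pericyte and smooth muscle markers (1810 and 2347, led by *Rgs5*). Double-positive cells had Schwann cell precursor sums of 105.8 and 67.3, and GFP- Pdgfrα+ cells had 13.4 and 24.9. Chondrocyte markers, of which 5 of 6 were listed, were uneven between replicates, with sums of 534.4 and 1868 in GFP- Pdgfrα+ cells and 481 and 890.8 in double-negative cells, mostly *Col2a1*. Endothelial markers (led by *Tek* in the mean of the 8 libraries) were uneven too, with sums of 31.9 and 114.8 in double-negative cells. They were 51.96 and 103.4 in GFP+ Pdgfrα- cells and 48.3 to 69.9 in the Pdgfrα+ libraries. Sums of markers of myeloid and other CD45+ cells (led by *Lyz2*) were 56.0 and 57.1 in double-negative cells and 5.52 to 26.8 elsewhere. Of these 6 markers, 4 were called higher in double-negative than in GFP- Pdgfrα+ cells and 1 higher than in GFP+ Pdgfrα- cells. That 1 was *Ptprc*, which encodes CD45, at 11.3 and 6.72 in double-negative cells and at most 1.58 in the other libraries. In such bulk libraries, fewer cells of a type and less RNA per cell cannot be told apart, and the part of these cell types in the transporter results below was not tested.

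The share of reads from solute carriers was 0.579% and 0.572% in GFP- Pdgfrα+ cells, 0.637% and 0.607% in double-positive cells, 0.619% and 0.606% in GFP+ Pdgfrα- cells, and 0.789% and 0.724% in double-negative cells. Without *Slc25a37* the double-negative shares were 0.662% and 0.593%, and those of the other libraries 0.571% to 0.635%. In the moderated F test of limma for any difference among the populations, 154 members (71.0%) were called at an adjusted p of at most 0.05, against 66.0% of all genes. Of these 154, double-negative cells had the highest mean for 54 (35.1%, against 39% of all genes called in that test) and the lowest for 79 (51.3%, against 49.4%). Double-positive cells had the highest mean for 44 (28.6%, against 17.4%), GFP- Pdgfrα+ cells for 30 (19.5%, against 24.6%) and GFP+ Pdgfrα- cells for 26 (16.9%, against 18.9%).

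Few members were called between GFP+ and GFP- cells among Pdgfrα+ cells: 12 members were higher and 2 lower with GFP (double-positive against GFP- Pdgfrα+ cells), where 3.22% of all genes were higher and 2.13% lower. The median log2 difference of the members was 0.07, and 0.005 over all genes. This count depended on single libraries. It was 3 without the first and 6 without the second double-positive library, 4 without the first and 5 without the second GFP- Pdgfrα+ library, 9 and 8 without the first or second GFP+ Pdgfrα- library, and 6 with no trend of variance on level, while it was 18 without either double-negative library and 19 without that population, an alternative chosen after seeing the data. Between double-positive and GFP+ Pdgfrα- cells, 45 members were higher and 27 lower in the former, beside 13.1% and 11.1% of all genes. That count of 72 became 43 without either GFP+ Pdgfrα- library.

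Differences from double-negative cells were more numerous, as they were for all genes. Against these cells, 64 members were higher and 51 lower in GFP+ Pdgfrα- cells (30.1% and 23.6% of all genes), and 81 were higher and 55 lower in GFP- Pdgfrα+ cells (32.9% and 26.8% of all genes), shares near the background. Both comparisons share the double-negative libraries. The balance of directions depended on scaling. With each library centred on its median, the splits became 50 higher and 74 lower, and 61 higher and 70 lower. With quantile normalization they were 52 higher and 67 lower, and 69 higher and 68 lower. Centring moved the median log2 difference of all genes from 0.15 to -0.30 in the first comparison and from 0.17 to -0.28 in the second. The interaction, which asks whether the GFP difference was unequal in Pdgfrα+ and Pdgfrα- cells, was called for 104 members (44.3% of all genes were called), 51 above and 53 below 0, and for 61 above and 40 below after centring, which moved the all-gene median from -0.16 to 0.27. With 2 libraries against 2, an exact permutation test of a single gene cannot give a p below 0.333, so the calls rest on the spread pooled across genes and populations.

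**Figure D1:**
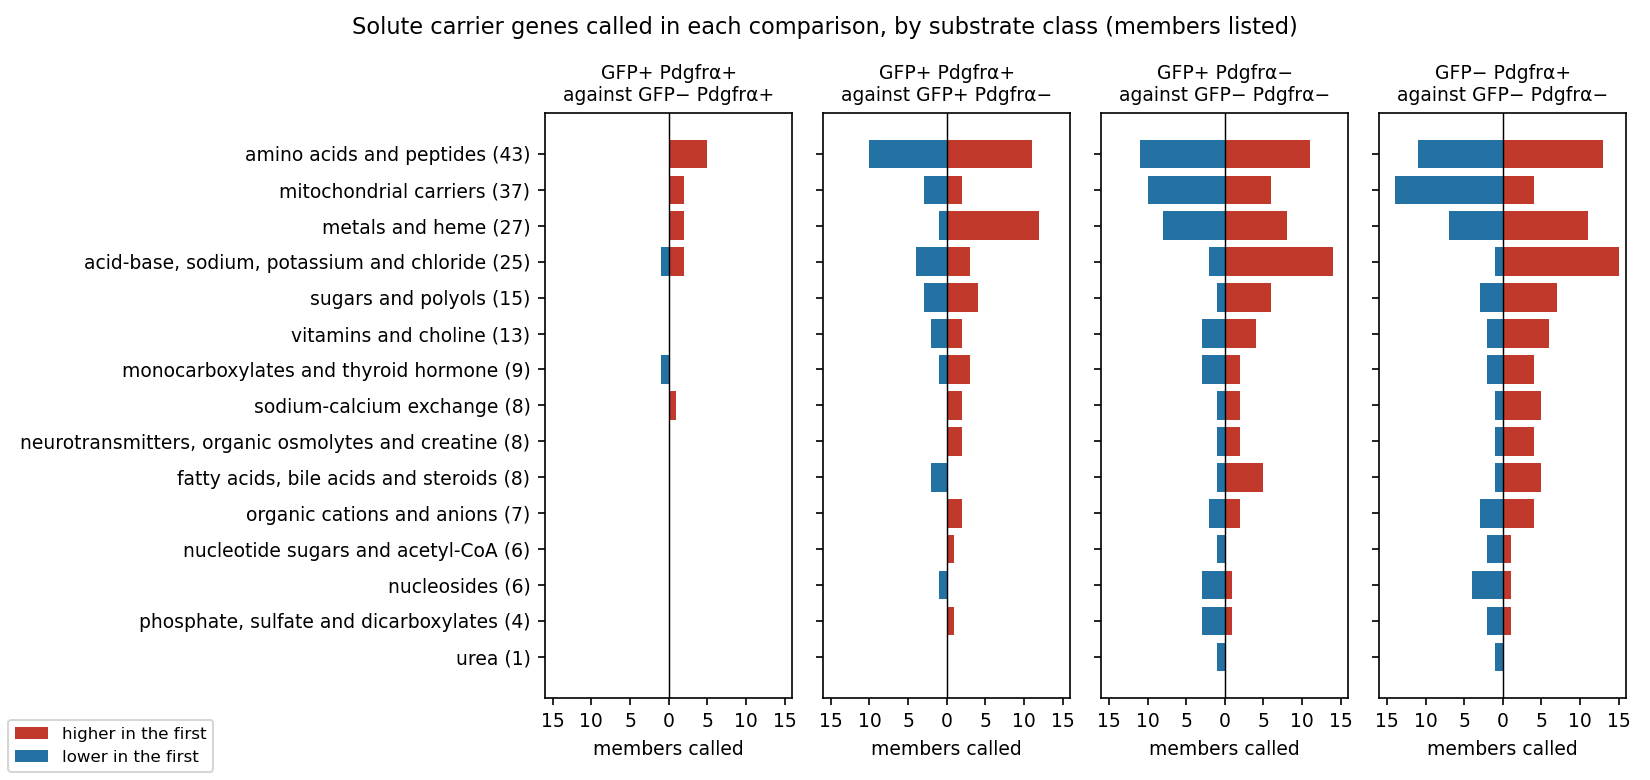
Horizontal bars show how many members of each substrate class (listed members in brackets) were called by limma at an adjusted p of at most 0.05 in each of 4 comparisons, to the right when higher in the first population named and to the left when lower. Metal and heme carriers were called higher 12 times and lower once in GFP+ Pdgfrα+ against GFP+ Pdgfrα- cells.

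The mitochondrial carriers (37 members) included the member with the highest signal per kilobase of exon averaged over the 8 libraries (98.4). *Slc25a37* (chr14:69859908-69903160 in NCBIM37, minus strand) encodes mitoferrin-1, which brings iron into the mitochondria of red cell precursors. Its signal was 1495 and 1645 in the double-negative libraries, 20.5 and 18.3 in GFP- Pdgfrα+ cells, 20.3 and 27.5 in double-positive cells, and 25.6 and 24.3 in GFP+ Pdgfrα- cells. The double-negative mean was 62.9 times that of GFP+ Pdgfrα- cells (log2 difference -5.92 ± 0.18 SE, limma adjusted p = 2.86e-10) and 80.9 times that of GFP- Pdgfrα+ cells. Only the double-negative libraries exceeded 28, and *Slc25a37* was not called between the Pdgfrα+ populations (adjusted p = 0.457). The summed signal of the class was 3035 and 2976 in double-negative cells and 835.9 to 1091 elsewhere.

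*Slc25a21*, a carrier of oxodicarboxylates, had a signal of 74.8 and 47.8 in double-negative cells and at most 1.39 in any other library, at least 70.0-fold above GFP+ Pdgfrα- cells. *Slc25a5* encodes an exchanger of ADP and ATP across the inner membrane. It was second in the class by signal per kilobase of exon averaged over the 8 libraries. Its level was 310 ± 54.2 in double-negative cells, 93.0 ± 21.8 in GFP+ Pdgfrα- cells, 91.1 ± 11.2 in double-positive cells and 32.2 ± 8.81 in GFP- Pdgfrα+ cells. Its double-positive mean was 2.83 times that of GFP- Pdgfrα+ cells (adjusted p = 0.00217), and the libraries of these populations did not overlap. A pair of carriers was low in double-negative cells instead. *Slc25a27*, an uncoupling protein known from the nervous system, read 57.2 and 50.3 in GFP+ Pdgfrα- cells, 22.2 and 28.03 in double-positive cells and 47.5 and 47.97 in GFP- Pdgfrα+ cells, but 3.02 and 0.59 in double-negative cells (29.8-fold below the first and 26.5-fold below the last of these). *Slc25a34* was high in GFP+ Pdgfrα- cells alone, at 19.3 and 18.9, with 2.62 and 1.29 in double-positive cells and values at the floor in both GFP- populations. Its GFP+ Pdgfrα- mean was 9.75 times that of double-positive cells (adjusted p = 0.000558) and at least 20.9 times that of double-negative cells. Over the class, GFP+ Pdgfrα- cells had 6 members higher and 10 lower than double-negative cells (30.1% and 23.6% of all genes), and GFP- Pdgfrα+ cells had 4 higher and 14 lower (32.9% and 26.8% of all genes). After centring these were 4 higher and 15 lower, and 3 higher and 16 lower. The erythroid marker sums given above were also highest in double-negative cells, and the part of such cells in the values of this class was not tested.

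**Figure D2:**
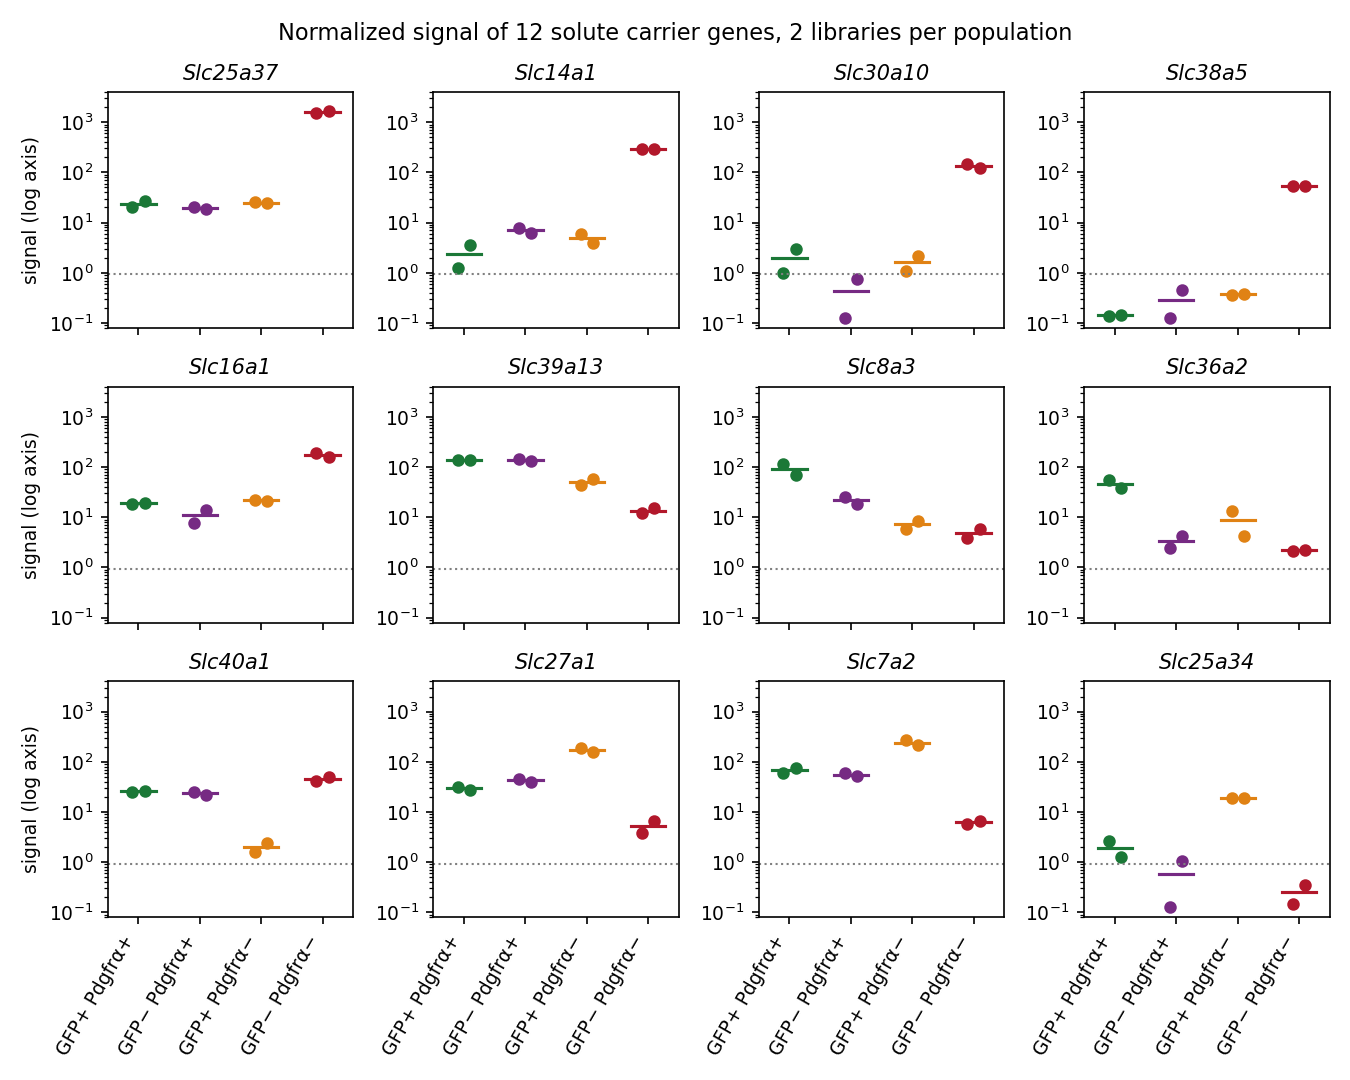
Points give the normalized signal of 12 solute carrier genes in each library on a log axis, lines the mean of the 2 libraries of a population, and the dotted line the median level of 3 reads over the 8 libraries. *Slc25a37* reached 1495 and 1645 in GFP- Pdgfrα- cells and at most 27.5 elsewhere, while *Slc39a13* lay between 129.9 and 147.6 in the Pdgfrα+ libraries and between 11.9 and 57.2 in the others.

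Among the 27 carriers of metals and heme, 12 were higher and 1 lower in double-positive cells when set against GFP+ Pdgfrα- cells (13.1% and 11.1% of all genes). Osteoblast markers were also higher in double-positive cells in this comparison (8 of 8 identifiers), as were tendon markers (5 of 6, with 1 lower). Schwann cell precursor (8 of 8), skeletal muscle (7 of 8) and pericyte and smooth muscle markers (5 of 6) were lower. The part of these cell types in the class counts was not tested. The class median was 0.67 on the log2 scale (-0.02 over all genes), and the counts were also 12 and 1 with centring and with quantile normalization. The largest log2 difference of the class in this comparison was in *Slc40a1* (chr1:45964915-45982439), which encodes ferroportin, the exporter of iron from cells. It read 25.5 and 26.3 in double-positive cells, 24.6 and 22.1 in GFP- Pdgfrα+ cells, 40.9 and 48.9 in double-negative cells, and 1.58 and 2.44 in GFP+ Pdgfrα- cells. GFP+ Pdgfrα- cells were thus the low population, 12.9-fold below double-positive cells (adjusted p = 5.01e-06) and 22.3-fold below double-negative cells. *Slc41a2*, a magnesium transporter, read 38.5 and 23.4 in double-positive cells, 19.04 and 12.03 in GFP- Pdgfrα+ cells, and at most 3.52 in the Pdgfrα- populations. Its double-positive mean was 9.20 times that of GFP+ Pdgfrα- cells, and its 1.99-fold excess over the other Pdgfrα+ population was not called (adjusted p = 0.201).

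*Slc39a13* encodes the zinc transporter ZIP13, which connective tissue needs for normal matrix. Its signal was 140 ± 1.63 in double-positive cells, 139 ± 12.5 in GFP- Pdgfrα+ cells, 50.9 ± 8.97 in GFP+ Pdgfrα- cells and 13.4 ± 2.16 in double-negative cells, so the Pdgfrα+ populations overlapped (adjusted p = 0.989), and among Pdgfrα- cells the GFP+ mean was 3.79 times the GFP- mean (adjusted p = 3.7e-06). The copper importer *Slc31a1* varied less, from 57.7 ± 4.13 in GFP+ Pdgfrα- cells to 99.2 ± 0.979 in double-positive cells. *Slc30a10*, which exports manganese, read 144 and 122 in double-negative cells and at most 3.02 in any other library. Its mean there was 81.3 times that of GFP+ Pdgfrα- cells (log2 difference -5.70 ± 0.45 SE, adjusted p = 5.19e-07) and at least 139 times that of GFP- Pdgfrα+ cells. Among the 14 members called between the Pdgfrα+ populations were the zinc importer *Slc39a14* (1.84-fold, adjusted p = 0.0345) and the iron importer *Slc11a2* (1.87-fold, adjusted p = 0.0296), both higher with GFP. So were *Slc7a1* (1.85-fold, adjusted p = 0.0101), *Slc43a2* (3.15-fold, adjusted p = 0.0484) and *Slc25a25* (3.18-fold, adjusted p = 0.0424) of other classes. These 5 were singled out after their values were seen, and each of them lost the call without the first double-positive library.

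Of 6 partner genes of iron and copper transport, GFP+ Pdgfrα- cells had 3 higher and 3 lower than double-negative cells (30.1% and 23.6% of all genes). The counts were also 3 and 3 for GFP- Pdgfrα+ cells (32.9% and 26.8% of all genes). The transferrin receptor gene *Tfrc* read 1639 and 1697 in double-negative cells and 19.7 to 53.1 in the other libraries. Ceruloplasmin (*Cp*), the ferroxidase that works with ferroportin, read 173 and 150 in double-positive cells, 170 and 190 in GFP+ Pdgfrα- cells, 6.18 and 3.66 in double-negative cells, and 38.95 and 39.65 in GFP- Pdgfrα+ cells. *Cp* was therefore high in both GFP+ populations, of which only the Pdgfrα+ one had *Slc40a1* above 3.

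Amino acid and peptide transporters were the largest class (43 members), and 34 of them were called in the F test, beside 66.0% of all genes. By signal per kilobase averaged over the 8 libraries the highest were *Slc38a2* and *Slc38a6*, of the family of sodium-coupled neutral amino acid transporters. This order did not hold in each population. In double-negative cells *Slc43a1* (75.7), *Slc7a5* (64.9), *Slc16a10* (46.3) and *Slc3a2* (45.8) were above *Slc38a6* (37.5) per kilobase. In GFP+ Pdgfrα- cells *Slc38a4* (37.6) was above *Slc38a6* (35.6). *Slc38a2* was 336 ± 14.6 in double-positive cells, 242 ± 9.50 in GFP- Pdgfrα+ cells, 345 ± 4.57 in GFP+ Pdgfrα- cells and 402 ± 17.3 in double-negative cells. Its 1.39-fold difference between the Pdgfrα+ populations was called (adjusted p = 0.0307) but lost the call without any one of the 4 libraries compared (adjusted p from 0.0801 to 0.207), without either GFP+ Pdgfrα- library (0.0582 and 0.0577), with no trend of variance on level (0.242), and with edgeR (0.0685). *Slc38a6* lay between 226 and 328 in all 8 libraries, with no pairwise call.

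The largest GFP differences among Pdgfrα+ cells were in this class. *Slc7a8* (chr14:55341053-55400723) encodes the exchanger LAT2 of neutral amino acids. It read 39.91 and 26.02 in double-positive cells and 34.6 and 36.9 in GFP+ Pdgfrα- cells, against 4.16 and 0.743 in GFP- Pdgfrα+ cells and 2.44 and 1.06 in double-negative cells. It was thus high in both GFP+ populations, 13.4-fold above GFP- cells among Pdgfrα+ cells (log2 3.47 ± 0.48 SE, adjusted p = 0.00154) and 20.4-fold among Pdgfrα- cells (adjusted p = 3.31e-05), and its interaction was not called (adjusted p = 0.744). Of the 8 Schwann cell precursor markers, 5 were called higher with GFP among Pdgfrα+ cells and 8 among Pdgfrα- cells. In the same order, the counts were 8 and 7 of 8 osteoblast identifiers and 2 and 8 of 8 skeletal muscle markers. For pericyte and smooth muscle markers they were 2 and 6 of 6. The part of these cell types in the *Slc7a8* values was not tested. *Slc36a2*, a proton-coupled carrier of small amino acids, read 55.9 and 37.8 in double-positive cells, 2.40 and 4.31 in GFP- Pdgfrα+ cells, 2.15 and 2.24 in double-negative cells, and 13.5 and 4.24 in GFP+ Pdgfrα- cells. Only the double-positive libraries exceeded 14, and the folds were 13.99 over GFP- Pdgfrα+ cells (adjusted p = 0.00129) and 5.29 over GFP+ Pdgfrα- cells (adjusted p = 0.00267). Its smaller difference between the Pdgfrα- populations (adjusted p = 0.0211) lost the call without the first GFP+ Pdgfrα- library (adjusted p = 0.253) or either double-negative library (adjusted p = 0.0641 and 0.0583), and with centring (adjusted p = 0.0885) or quantile normalization (adjusted p = 0.221). It was also lost when only the populations compared were fitted (adjusted p = 0.0611) and with voom on reads (adjusted p = 0.0556). Osteoblast markers were also called higher in double-positive cells than in GFP- Pdgfrα+ or GFP+ Pdgfrα- cells (8 of 8 identifiers each). Their part in the *Slc36a2* values was not tested.

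Several other amino acid carriers had their lowest means in double-negative cells. *Slc7a2*, a carrier of arginine and other cationic amino acids, read 267 and 214 in GFP+ Pdgfrα- cells, 60.3 and 74.6 in double-positive cells, 59.6 and 50.9 in GFP- Pdgfrα+ cells, and 5.89 and 6.72 in double-negative cells. The GFP+ Pdgfrα- mean was 38.1 times that of double-negative cells (adjusted p = 1.41e-09) and 3.56 times that of double-positive cells (adjusted p = 3.28e-05). *Slc38a4* had the largest log2 increase of the members in GFP+ Pdgfrα- over double-negative cells, with 144 and 159 in GFP+ Pdgfrα- cells against 1.58 and 3.42 (60.6-fold, log2 5.49 ± 0.24 SE, adjusted p = 3.51e-09). It read 111 and 97.3 in double-positive cells, not called against GFP+ Pdgfrα- cells (adjusted p = 0.127) or GFP- Pdgfrα+ cells (adjusted p = 0.202), and its GFP- Pdgfrα+ mean was 27.6 times that of double-negative cells. *Slc36a4* was near 66.1 ± 8.29 and 67.3 ± 1.22 in the Pdgfrα+ populations, 24.5 ± 4.53 in GFP+ Pdgfrα- cells and 3.70 ± 1.06 in double-negative cells. *Slc6a17*, known from synaptic vesicles, was low throughout but reached 13.96 and 20.97 in GFP+ Pdgfrα- cells against 6.21 and 1.29 in double-positive cells, a 4.65-fold difference (adjusted p = 0.0097). That call was lost without the second double-positive library (adjusted p = 0.08) or the second GFP+ Pdgfrα- library (adjusted p = 0.102).

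*Slc38a5*, which carries glutamine with sodium, read 53.6 and 52.5 in double-negative cells and had at most 3 reads in each remaining library, with a highest value of 0.446. It was at least 60.6-fold above GFP+ Pdgfrα- cells and at least 55.2-fold above GFP- Pdgfrα+ cells. Genes of the response to amino acid shortage also had their highest means in these cells, with 5 of 6 called above GFP+ Pdgfrα- cells (23.6% of all genes) and 6 of 6 above GFP- Pdgfrα+ cells (26.8% of all genes). The asparagine synthetase gene *Asns* of that list read 301 and 268 in double-negative cells and 4.98 to 16.2 elsewhere. Over the class, GFP+ Pdgfrα- cells had 11 members higher and 11 lower than double-negative cells (30.1% and 23.6% of all genes), a balance that became 6 higher and 16 lower with centring.

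Urea, nucleosides and lactate had their most abundant carriers in double-negative cells. *Slc14a1*, the urea transporter that carries the Kidd blood group in humans, was the sole listed urea transporter. It read 291 and 294 in double-negative cells, 5.95 and 3.99 in GFP+ Pdgfrα- cells, 1.24 and 3.59 in double-positive cells, and 7.94 and 6.09 in GFP- Pdgfrα+ cells. Its double-negative mean was 58.9 times that of GFP+ Pdgfrα- cells (adjusted p = 8.13e-08) and 41.7 times that of GFP- Pdgfrα+ cells. Of the 6 nucleoside and nucleobase carriers, *Slc43a3* had the highest level, 508 ± 17.7 in double-negative cells against 126 ± 21, 83.3 ± 13.98 and 60.9 ± 14.95 in GFP+ Pdgfrα-, double-positive and GFP- Pdgfrα+ cells. The equilibrative nucleoside transporter gene *Slc29a1* was 94.3 ± 3.19 there and 36.1 ± 6.12 to 55.2 ± 6.92 in the other populations. The lactate and pyruvate carrier *Slc16a1* read 192 and 156 in double-negative cells and 7.69 to 22.5 elsewhere, 8.01-fold above GFP+ Pdgfrα- cells (adjusted p = 1.36e-06). *Bsg*, whose product takes lactate carriers to the cell surface, was also highest there, at 269 and 280 in double-negative cells and 83.2 to 161 elsewhere. Of the 6 chaperone and scaffold genes listed with *Bsg*, GFP+ Pdgfrα- cells had 1 higher and 3 lower than double-negative cells (30.1% and 23.6% of all genes), while double-positive cells had 4 higher and 0 lower than GFP+ Pdgfrα- cells (13.1% and 11.1% of all genes). The list of 6 genes of ABC proteins, led by *Abca1*, gave 2 higher and 2 lower in the first of these comparisons and 3 higher and 1 lower in the second, beside the same shares of all genes. It includes *Abcc9*, which encodes a subunit of a potassium channel and is also on the pericyte and smooth muscle list, and which was among those higher in the first and was the 1 lower in the second.

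Phosphate and sulfate carriers, which supply mineral and sulfated proteoglycans, were few, with 4 listed. The phosphate importers differed from each other. *Slc20a1* read 104 and 106 in double-negative cells and 12.98 to 21 in the other libraries, 5.35-fold above GFP+ Pdgfrα- cells (adjusted p = 1.97e-06). *Slc20a2* was lowest in those cells, at 23.2 ± 5.01, and 50.97 ± 1.15 in double-positive, 38.1 ± 4.08 in GFP- Pdgfrα+ and 37.3 ± 4.48 in GFP+ Pdgfrα- cells. Its 1.60-fold and 1.64-fold differences from double-negative cells were called (adjusted p = 0.0163 and 0.0113) but not after centring (adjusted p = 0.397 and 0.313). Neither was called without the first double-negative library (adjusted p = 0.115 and 0.0849), nor without the first library of the other population (adjusted p = 0.113 and 0.0843). The sulfate carrier *Slc26a1* read 80.0 and 70.4 in double-negative cells and 2.31 to 5.42 elsewhere. The cartilage sulfate carrier *Slc26a2* was 65.4 ± 10.1 in double-positive cells, 2.05-fold above GFP+ Pdgfrα- cells (31.9 ± 5.94, adjusted p = 0.00205), 49.1 ± 0.858 in GFP- Pdgfrα+ cells and 50.4 ± 0.327 in double-negative cells. Its 1.58-fold excess in double-negative over GFP+ Pdgfrα- cells was called (adjusted p = 0.0111), but not without the second GFP+ Pdgfrα- library (adjusted p = 0.102).

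Other genes of phosphate and pyrophosphate handling separated the Pdgfrα+ populations, where none of the 4 carriers was called. Of 5 listed, 3 were higher and 1 lower with GFP, beside 3.22% and 2.13% of all genes. Alkaline phosphatase (*Alpl*) read 298 and 201 against 34.4 and 25.7, the pyrophosphate transport gene *Ank* 161 and 122 against 38.2 and 34.01, and *Phospho1* 153 and 71.7 against 6.68 and 4.90. The phosphate exporter *Xpr1* was the lower one, with 71.4 and 86.1 against 156 and 122 (adjusted p = 0.0169). The osteoblast markers summed above, which include *Alpl*, were all higher in double-positive cells, and their part in these values was not tested.

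Among carriers of sodium, calcium and protons, *Slc8a3* (chr12:82298902-82434167) had the largest fitted log2 increase of the members in double-positive over GFP+ Pdgfrα- cells. It encodes an exchanger that moves calcium out of the cell against sodium. The values were 114 and 68.9 in double-positive cells, 25.3 and 18.6 in GFP- Pdgfrα+ cells, 3.88 and 5.78 in double-negative cells, and 5.95 and 8.62 in GFP+ Pdgfrα- cells. The double-positive mean was 12.5 times that of GFP+ Pdgfrα- cells (log2 3.45 ± 0.32 SE, adjusted p = 1.34e-05) and 4.16 times that of GFP- Pdgfrα+ cells (adjusted p = 0.00419). The latter call was lost without the first double-positive library (adjusted p = 0.0659) or the second GFP- Pdgfrα+ library (adjusted p = 0.0721). *Slc24a6*, of the same class of 8 and known for sodium-calcium exchange in mitochondria, was low in double-negative cells alone, at 1.01 and 3.66 against 13.9 to 26.3.

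Of the 25 carriers of acid, base, sodium, potassium and chloride, 14 were higher and 2 lower in GFP+ Pdgfrα- than in double-negative cells (30.1% and 23.6% of all genes), with a class median of 1.09 on the log2 scale. In GFP- Pdgfrα+ cells 15 were higher and 1 lower than there (32.9% and 26.8% of all genes), with a median of 1.00. After centring the counts were 12 higher and 4 lower, and 13 higher and 3 lower, with medians of 0.64 and 0.54. With quantile normalization they were 11 higher and 3 lower, and 14 higher and 3 lower, with medians of 0.80 and 1.01. *Slc9a7*, a proton exchanger of the Golgi, had levels of 14.4 and 12.2 in GFP+ Pdgfrα- cells against at most 1.52 elsewhere, and was 17.9-fold above double-negative cells (adjusted p = 2.89e-05).

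Both members of this class called higher with GFP among Pdgfrα+ cells were weakly expressed. The cotransporter *Slc12a7* read 16.4 and 18.5 in double-positive and 2.14 and 6.09 in GFP- Pdgfrα+ cells (4.25-fold, adjusted p = 0.0199), and the anion transporter *Slc26a7* 24.7 and 15.4 against 5.93 and 4.60 (3.81-fold, adjusted p = 0.0361). The *Slc12a7* call was lost without the first (adjusted p = 0.0922) or second (0.11) double-positive library, the first GFP- Pdgfrα+ library (0.177), or either GFP+ Pdgfrα- library (0.0536 and 0.0541), as well as with only the populations compared (0.0579) and with no trend (0.0608). The *Slc26a7* call was lost without any one of the 6 libraries of these 3 populations (adjusted p from 0.0507 to 0.214) and with a pseudocount of 0.1 (0.133). Of the sodium-potassium ATPase, which maintains the gradient such carriers use, 4 subunit genes were counted, 2 of them higher and 0 lower with GFP among Pdgfrα+ cells (3.22% and 2.13% of all genes).

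Fatty acid carriers had one pronounced member. *Slc27a1* (chr8:74092826-74110607) encodes FATP1, which takes up long-chain fatty acids in muscle and fat. It read 191 and 155 in GFP+ Pdgfrα- cells, 32.2 and 27.7 in double-positive cells, 46.3 and 38.8 in GFP- Pdgfrα+ cells, and 3.88 and 6.72 in double-negative cells. The GFP+ Pdgfrα- mean was 5.77 times that of double-positive cells (log2 -2.49 ± 0.24 SE for the latter against the former, adjusted p = 1.96e-05) and 32.6 times that of double-negative cells. The skeletal muscle markers given above were also highest in GFP+ Pdgfrα- cells, where 7 of 8 were above double-positive cells, as were 8 of 8 Schwann cell precursor markers and 5 of 6 pericyte and smooth muscle markers. The part of these cell types in this result was not tested. *Slc10a7*, highest of the class after *Slc27a1* by signal per kilobase averaged over the 8 libraries, lay between 22.3 and 29.4 in all libraries with no call.

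Sugar and choline carriers were highest in Pdgfrα+ cells in several cases. *Slc37a3* was 46.8 ± 10.2 and 50.8 ± 3.97 in GFP+ and GFP- Pdgfrα+ cells, 20.5 ± 7.29 in GFP+ Pdgfrα- cells and 3.31 ± 0.822 in double-negative cells. The sugar transporter *Slc50a1* was 25.3 ± 0.677, 24.7 ± 2.35, 12.5 ± 0.0192 and 7.65 ± 1.98 in the same order, and its 2.03-fold difference between the GFP+ populations (adjusted p = 0.0196) lost the call without any one of their 4 libraries (adjusted p from 0.0693 to 0.0909). The choline transporter gene *Slc44a1* was 208 ± 23.8, 145 ± 31.2, 90.4 ± 6.55 and 42.7 ± 5.57, and its relative *Slc44a2* 105 ± 7.18, 140 ± 2.91, 79.6 ± 15.3 and 35.8 ± 6.19. *Slc44a5* of that family instead read 19.3 and 18.1 in GFP+ Pdgfrα- cells and at most 3.02 in the other libraries (7.80-fold over double-positive cells, adjusted p = 0.00183). Of the 15 sugar carriers, 4 were higher and 3 lower with Pdgfrα among GFP+ cells, beside 13.1% and 11.1% of all genes.

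Of the 8 carriers of neurotransmitters, osmolytes and creatine, 7 were called in the F test, as were 5 of the 7 carriers of organic cations and anions, beside 66.0% of all genes. The taurine transporter *Slc6a6* was 209 ± 18.3 in GFP- Pdgfrα+ cells and 126 ± 5.51 to 151 ± 9.28 elsewhere, and its 1.46-fold difference from double-negative cells (adjusted p = 0.00357) was not called after centring (adjusted p = 0.557). The creatine transporter *Slc6a8* was 5.76 ± 1.03 in double-negative cells and 50.8 ± 6.14 to 77.8 ± 3.93 elsewhere. *Slc17a9*, which loads nucleotides into vesicles, read 11.7 and 5.03 in double-positive cells and had at most 3 reads in each GFP+ Pdgfrα- library (at least 9.58-fold, adjusted p = 0.00217). *Slc22a17*, a receptor for lipocalin, was 1.34 ± 1.28 in double-negative cells and 28.8 ± 4.18 to 37.3 ± 4.84 elsewhere, whereas *Slc22a23* was 108 ± 3.89 there and 22.3 ± 10.6 to 33.6 ± 4.73 elsewhere. Of the 6 nucleotide sugar carriers, the CMP-sialic acid transporter *Slc35a1* lay between 19.7 and 36.4 in all libraries with no call, whereas *Slc35a4* was 118 ± 2.71 in double-negative cells and 57.1 ± 16.7 to 68.7 ± 3.25 elsewhere.

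**Figure D3:**
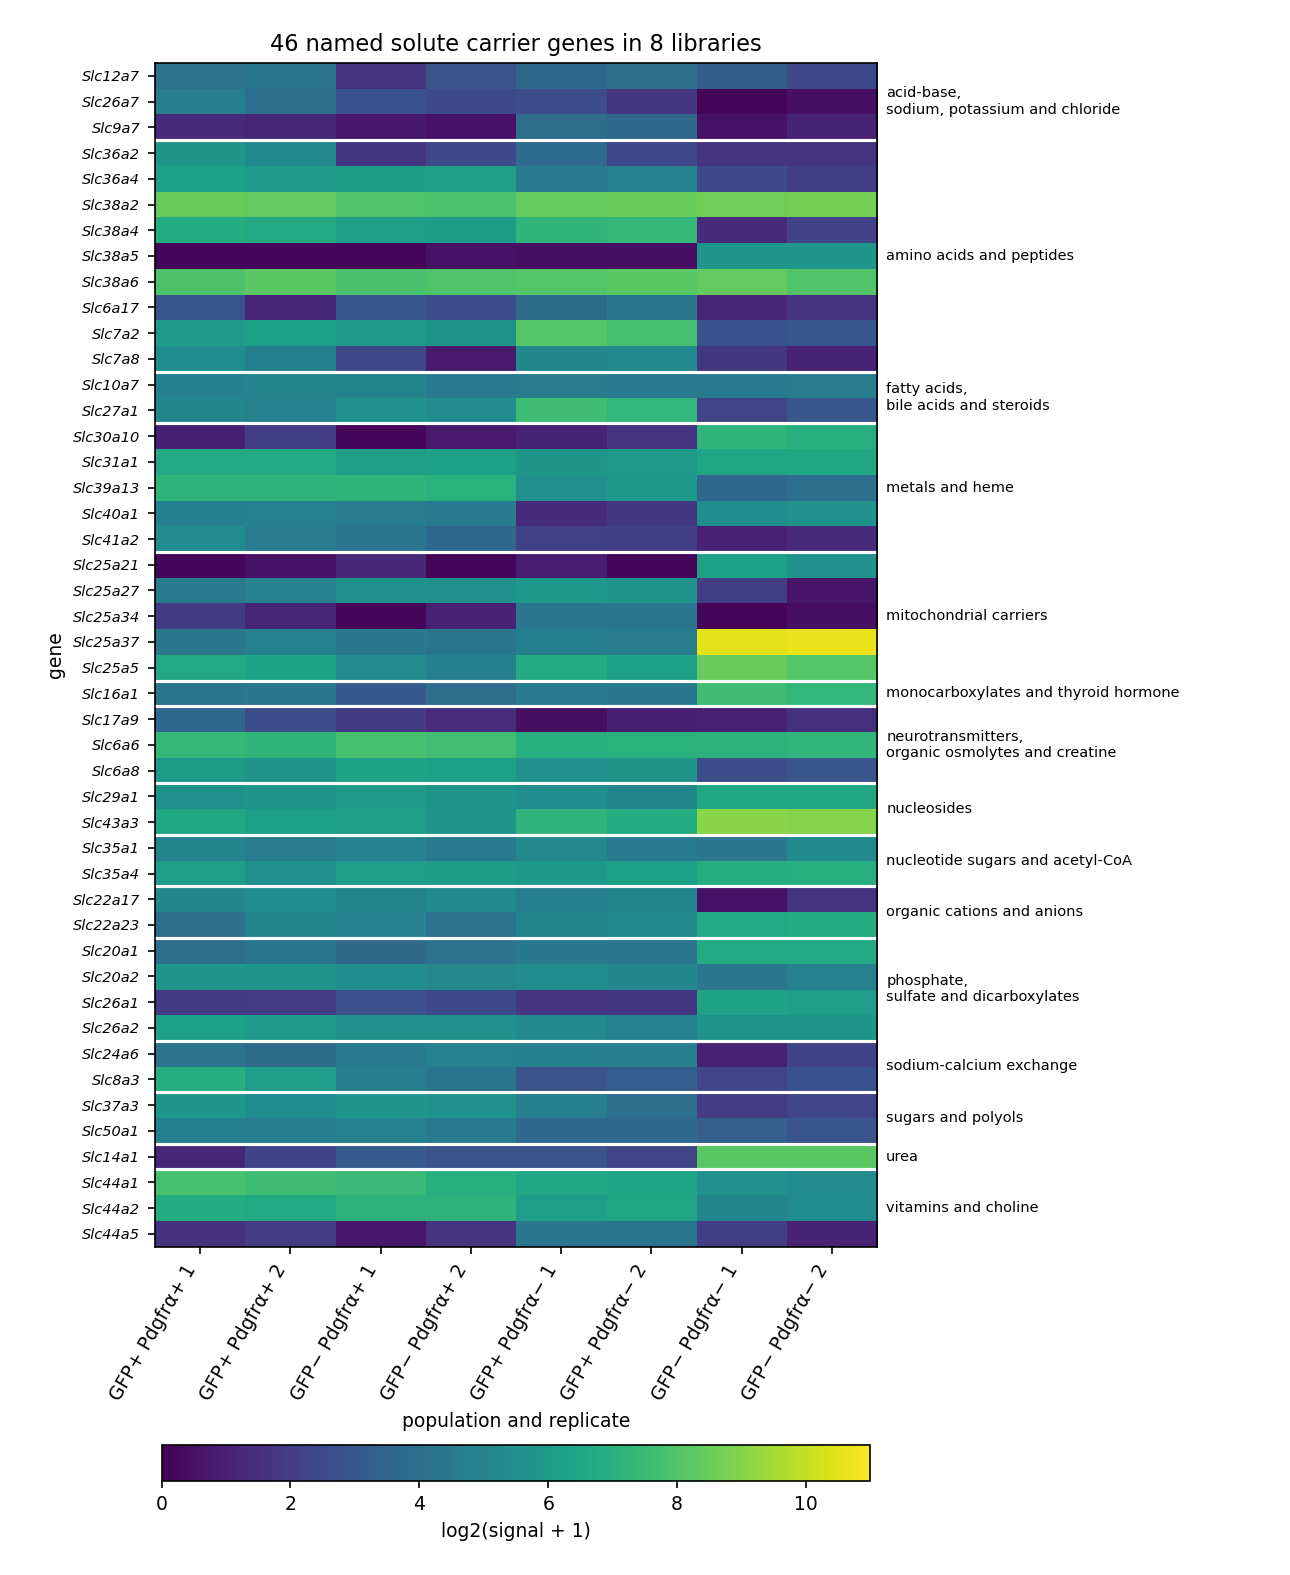
Colours give log2(signal + 1) of 46 named solute carrier genes (rows, grouped by substrate class) in the 8 libraries (columns, population and replicate number). The brightest cells are the GFP- Pdgfrα- libraries of *Slc25a37*, with signals of 1495 and 1645.

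Several members share exons with another gene, which the counting may not separate. In the Ensembl annotation of NCBIM37, 8 members overlap exons of another gene on the same strand and 45 overlap one on the opposite strand. Among the latter are *Slc39a13* with *Psmc3*, *Slc26a1* with *Idua* and *Slc25a21* with *Pax9*, and the counting is not stated to use strand.

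Promoters were searched for short motifs. Of 216 member symbols, 165 had a promoter in the RefSeq table of build GRCm38.p6, each 300 bases long with 250 before and 50 after the start. 4 motifs, chosen after the values were seen, were searched on both strands: AGATAA and TGATAA, letters that GATA factors bind, TGATGNAA, which amino acid response elements contain, and CCACACCC, letters bound by KLF factors. Other letters that these factors can bind were not searched, such as AGATAG, which the *Slc38a5* sequence below holds. A promoter with none of the 4 motifs can therefore still hold such a site. AGATAA was found in 11.2% of all 32851 promoters and 9.13% of 219 promoters of members. TGATAA was found in 9.05% and 4.57%, TGATGNAA in 3.97% and 3.2%, and CCACACCC in 3.56% and 5.48%. In all, 14 of the 46 named genes were called higher in double-negative cells than in both GFP- Pdgfrα+ and GFP+ Pdgfrα- cells. Of all genes, 26.8% were called higher there in the first and 23.6% in the second comparison, and the share called in both was not counted. Some of the 14 were named for the size of these differences, so their count is partly set by the naming rule. For *Slc40a1*, the call against GFP- Pdgfrα+ cells was lost without the second library of those cells or of double-negative cells. Of the 14 genes, *Slc14a1*, *Slc25a37*, *Slc35a4*, *Slc40a1* and *Slc43a3* had no promoter in the table. The other 9 genes, of which *Slc29a1* alone had 8 promoters, had 19 in all. AGATAA was in 3 of these promoters (*Slc25a5*, *Slc26a1* and *Slc29a1*), TGATAA in 2 (*Slc16a1* and *Slc30a10*), CCACACCC in 2 (*Slc25a21* and *Slc29a1*) and TGATGNAA in 0, while *Slc20a1*, *Slc22a23* and *Slc38a5* had none of the 4 motifs. Promoters of 3 of these genes are printed as examples, chosen after their values were seen. *Slc30a10* (chr1:185454598-185454897, plus strand) and *Slc16a1* (chr3:104638414-104638713, plus strand) each had 1 TGATAA, on the minus and plus strand of the printed sequence, and *Slc38a5* (chrX:8271131-8271430, plus strand) had none of the 4 motifs. Each is printed 5′ to 3′, and capitals mark the match.
Slc30a10: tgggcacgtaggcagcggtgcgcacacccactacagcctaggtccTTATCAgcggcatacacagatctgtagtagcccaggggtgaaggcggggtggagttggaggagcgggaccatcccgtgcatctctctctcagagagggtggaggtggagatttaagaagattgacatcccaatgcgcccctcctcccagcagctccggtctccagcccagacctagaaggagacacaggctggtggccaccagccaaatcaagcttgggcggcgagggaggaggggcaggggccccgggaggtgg
Slc16a1: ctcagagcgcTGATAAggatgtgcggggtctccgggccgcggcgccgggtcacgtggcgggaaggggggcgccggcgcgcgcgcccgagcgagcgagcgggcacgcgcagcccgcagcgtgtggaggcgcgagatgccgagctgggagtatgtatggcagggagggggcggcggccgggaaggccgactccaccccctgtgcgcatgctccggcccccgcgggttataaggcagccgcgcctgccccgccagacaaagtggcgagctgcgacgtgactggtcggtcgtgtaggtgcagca
Slc38a5: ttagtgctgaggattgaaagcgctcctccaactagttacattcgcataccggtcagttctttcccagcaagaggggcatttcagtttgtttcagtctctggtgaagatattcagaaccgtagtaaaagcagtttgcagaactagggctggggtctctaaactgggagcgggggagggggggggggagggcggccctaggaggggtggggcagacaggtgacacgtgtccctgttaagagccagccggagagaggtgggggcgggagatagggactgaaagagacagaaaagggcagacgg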

How the data were processed

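The deposited signal per gene and library was made by the authors. They removed adaptors with cutadapt, quantified reads on the NCBIM37 transcriptome with RSEM 1.17, filtered genes with few reads and normalized with voom of limma, adding 0.5 reads. Whole reads were recovered for 100% of the deposited values (tolerance 0.1 reads). Members and gene lists were chosen with earlier results of these data known.

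The linear signal was put on a log2(value + 1) scale, and limma 3.58.1 (R 4.3.3, eBayes with trend) was run with 1 coefficient per population on the 8 libraries, leaving 4 residual degrees of freedom. Fold changes on this scale understate those of low genes, so folds are given as ratios of mean signal and log2 differences come from the fit. Benjamini-Hochberg adjustment covered the 15880 genes, with calls at an adjusted p of 0.05 or below. Identifiers were matched to the annotation for 15849 genes. Substrate classes and partner genes are described by counts and medians, with no test of a class. Recovered reads were also tested with edgeR 4.0.16, which called 14, 68, 115 and 130 members in the 4 comparisons in the order GFP within Pdgfrα+ cells, Pdgfrα within GFP+ cells, GFP within Pdgfrα- cells and Pdgfrα within GFP- cells. The code of the fits was run on simulated data in which only some genes changed, in 1 population. This does not measure the error rate of the calls or the effect of scaling in the present data. Alternatives were another pseudocount, a filter on low values, centring, quantile normalization, no variance trend, voom on reads, the replicate number as a block, and fits without libraries or populations. Python 3.11.15 with pandas 2.3.3 and matplotlib 3.10.9 drew up the summaries and plots.

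Genes were named by a rule. Per comparison, it took the 5 largest increases and 5 largest decreases among called members whose libraries do not overlap. Per class, it took the 2 members with the highest signal per kilobase averaged over the 8 libraries. All phosphate, sulfate and dicarboxylate carriers were named as well. Some genes that the rule or the lists name are not reported here, and list sums leave them out. The design text says that each set of samples came from pooled littermates, and libraries of the same replicate number were taken as such a set. Their deviations from the population means correlated at 0.00433 to 0.0812 over the 6 pairs of populations.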

Additional observations from a re-analysis of the deposited data

Results flagged for a closer look

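For 34 of the 46 named genes, the difference between GFP+ and GFP- cells was unequal in Pdgfrα+ and Pdgfrα- cells by the interaction term of limma at an adjusted p of at most 0.05. This term was called for 44.3% of all genes and 47.9% of the 217 members, and 23 of the 46 genes were named for the size of their change. The values that follow are log2 differences between the GFP effect in Pdgfrα+ cells and that in Pdgfrα- cells. Of the 34 genes, only *Slc25a5*, *Slc36a2*, *Slc8a3* and *Slc38a2* were called between the Pdgfrα+ populations. Each value also takes in the double-negative libraries, so a value above or below 0 need not be a GFP difference among Pdgfrα+ cells.

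The GFP effect was more positive in Pdgfrα+ cells for 19 genes. The values were *Slc30a10* 6.70, *Slc25a37* 6.19, *Slc38a5* 5.13, *Slc25a21* 5.02, *Slc14a1* 4.33, *Slc40a1* 4.09, *Slc26a1* 3.83, *Slc16a1* 3.73, *Slc25a5* 3.23 and *Slc20a1* 2.51. For the remaining 9 of these they were *Slc43a3* 2.47, *Slc17a9* 2.05, *Slc36a2* 2.02, *Slc22a23* 1.62, *Slc8a3* 1.47, *Slc29a1* 1.27, *Slc31a1* 1.11, *Slc26a2* 1.05 and *Slc38a2* 0.70.

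It was more negative in Pdgfrα+ cells for 15 genes. The values were *Slc25a27* -5.34, *Slc27a1* -5.31, *Slc38a4* -4.91, *Slc7a2* -4.76, *Slc24a6* -3.73, *Slc22a17* -3.66, *Slc6a17* -3.54 and *Slc6a8* -3.38. For the remaining 7 of these they were *Slc25a34* -3.09, *Slc36a4* -2.48, *Slc37a3* -2.42, *Slc9a7* -2.41, *Slc44a5* -2.21, *Slc39a13* -1.83 and *Slc44a2* -1.54.

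Some of these interaction calls did not hold in each alternative. They were lost with edgeR for *Slc25a21* (adjusted p = 0.189), *Slc38a5* (0.966), *Slc9a7* (0.115), *Slc36a2* (0.0872) and *Slc44a5* (0.0606), where the log2 differences of edgeR were 5.2, 5.19, -2.74, 1.80 and -2.47 in this order. With voom on reads they were lost for *Slc36a2* (0.0994), *Slc8a3* (0.101), *Slc17a9* (0.0534), *Slc9a7* (0.061) and *Slc44a5* (0.0746). A pseudocount of 0.1 ended the calls of *Slc36a2* (0.0588) and *Slc44a5* (0.0782), quantile normalization that of *Slc44a5* (0.0599), and no trend of variance on level that of *Slc38a2* (0.069). Leaving out 1 library ended others. *Slc36a2* was lost without the first GFP+ Pdgfrα+ (0.101), first GFP- Pdgfrα+ (0.102), second GFP+ Pdgfrα- (0.117) or second GFP- Pdgfrα- library (0.0523), *Slc8a3* without the first GFP+ Pdgfrα+ (0.104), second GFP- Pdgfrα+ (0.0893), first GFP+ Pdgfrα- (0.0847) or second GFP- Pdgfrα- library (0.0598), and *Slc17a9* without the same 4 (0.0712, 0.0813, 0.0859 and 0.0771). *Slc44a5* was lost without the second GFP- Pdgfrα+ (0.0747), first GFP+ Pdgfrα- (0.0549) or second GFP- Pdgfrα- library (0.0683), and *Slc22a23* without the second GFP- Pdgfrα+ (0.0604) or first GFP+ Pdgfrα- library (0.0585).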

How the results depend on the processing

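The count of 14 members called between GFP+ and GFP- cells among Pdgfrα+ cells fell to 6 with no trend of variance on level and ranged from 3 to 18 when a single library was left out. The count of 72 called between Pdgfrα+ and Pdgfrα- cells among GFP+ cells ranged from 43 to 73. With single libraries left out, the other comparisons with GFP- Pdgfrα- cells gave 98 to 123 and 116 to 139 members, the interaction 86 to 102 and the F test 138 to 156. A population reduced to 1 library was assumed to vary like the others, and leaving out a replicate number in all populations left no residual degrees of freedom, so it gave values and no test. The cause of these shifts was not tested.

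With the replicate block, the counts for the 4 pairwise comparisons were 14, 73, 119 and 135, for the interaction 103 and for the F test 155. There were 20 alternatives, and not each of them gave a test for each result. Of 132 called results of named genes, 107 kept the call in each alternative that tested them, 25 lost it under at least 1, and 0 reversed. Depth limits genes near 3 reads, and 17, 12, 14 and 34 members were at that floor in GFP+ Pdgfrα+, GFP- Pdgfrα+, GFP+ Pdgfrα- and GFP- Pdgfrα- cells.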
